A study of Homo sapiens with 22 samples.

Results

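The 10 genes described here are the heat-shock chaperone genes HSPA1A, HSPA1B, HSPA5, HSPA8, HSPD1, HSPH1, HSP90AA1, HSP90AB1 and DNAJB1, and HSF1, the gene of the main heat-shock transcription factor. They were taken by name, as 10 of the 20037 protein-coding genes of the RefSeq table on chromosomes 1 to 22, X and Y. For each gene all peaks within 1 kb of either outer end and inside the gene were read from the 4 chromatin immunoprecipitation (ChIP) lists, and all crosslinking immunoprecipitation (CLIP) peaks bearing its symbol from the 2 CLIP lists. A peak within 1 kb of either end is called a gene-end peak.

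The cells were THP-1, a human monocytic leukaemia line, infected with a lentivirus whose short hairpin RNA targeted QKI5 (knockdown) or was a control hairpin (control). QKI5 is the nuclear isoform of the RNA-binding protein QKI, and the title of the series raises its part in transcriptional regulation when monocytes differentiate. All 22 samples share the lentiviral infection, and each condition had 2 samples each for ChIP of H3K4me3 (a histone mark of active starts), for ChIP of RNA polymerase II (Pol II), for CLIP with a QKI5 antibody and for its input, with 4 ChIP inputs for knockdown and 2 for control. Control cells are named as untreated in the series design text but as given a control hairpin in the labels, which were followed here. The number of hairpins, of clones and of independent infections is not given in the sources used here, and no heat or other stress treatment is named in the labels. Each deposited list was made from both replicates, so every comparison below sets 1 list against 1 list and has no replicate check or test. The lists held 21373 H3K4me3 peaks in knockdown and 21965 in control, 35103 Pol II peaks in knockdown and 33376 in control, and 669 CLIP peaks in knockdown and 7337 in control. They hold no library depth and no measure of QKI5 abundance, and thus no check of the knockdown. Of 6 monocytic genes (CD14, CD33, CSF1R, SPI1, LYZ, MPO), 4 had an H3K4me3 gene-end peak in both lists, and CSF1R and MPO had none in either. Pol II was listed at 4 of the 6 in both conditions, at CSF1R in knockdown alone (755 bp) and at MPO in neither. The CD14 Pol II peak was 1129 bp in knockdown and of the narrowest listed width in control, a log2 ratio of 1.17. MPO carried 4 control CLIP peaks of 34 to 58 reads and SPI1 carried 1 of 14 reads, and none of the 6 carried one in knockdown.

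Heat-shock proteins are chaperones that help other proteins fold, and many are made in larger amounts when proteins unfold under stress. HSF1 is held inactive by chaperones in unstressed cells and, once released, binds as a trimer to heat-shock elements, which are arrays of GAA units in alternating orientation. The genes of constitutive family members such as HSPA8 and HSP90AB1 are transcribed in most cells, and heat-shock genes are a classic setting for the study of Pol II pausing near the start of a gene.

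Promoter windows from RefSeq (GRCh38.p14) were found for 9 of the 10 genes, all but HSF1, and numbered 15, since HSPD1 and HSP90AA1 have 2 windows each and HSP90AB1 and DNAJB1 have 3 each. The start site of 15 of these 15 windows lay under an H3K4me3 peak in both conditions, against 64.0% of all 22199 windows of protein-coding genes. The start site of 15 of 15 also lay under a Pol II peak in both conditions, against 51.8% of all such windows. Windows of one gene can share a peak, as the 3 of HSP90AB1 and the 2 of HSPD1 did for both marks, so the 15 are not independent. The 250 bases before the start are given for 5 genes, namely the 2 inducible HSP70 copies, the 2 genes with a 3-unit element whose widest Pol II peak was more than 2-fold wider in knockdown (HSPA8 and HSP90AA1), and HSPA5, which holds another kind of element. Capitals mark pairs of heat-shock units (GAANNTTC or TTCNNGAA, each its own reverse complement). In HSPA5 they mark the endoplasmic reticulum stress element, CCAAT and CCACG with 9 bases between. The windows lie at chr6:31815293-31815542 (plus strand) for HSPA1A, chr6:31827488-31827737 (plus) for HSPA1B, chr11:123062137-123062386 (minus) for HSPA8, chr14:102087045-102087294 (minus) for the inner start of HSP90AA1, and chr9:125241344-125241593 (minus) for HSPA5.
HSPA1A: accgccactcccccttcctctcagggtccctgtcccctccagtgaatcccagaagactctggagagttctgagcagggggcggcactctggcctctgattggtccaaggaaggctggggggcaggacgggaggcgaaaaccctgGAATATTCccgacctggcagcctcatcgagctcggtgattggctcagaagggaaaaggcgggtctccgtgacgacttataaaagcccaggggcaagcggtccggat
HSPA1B: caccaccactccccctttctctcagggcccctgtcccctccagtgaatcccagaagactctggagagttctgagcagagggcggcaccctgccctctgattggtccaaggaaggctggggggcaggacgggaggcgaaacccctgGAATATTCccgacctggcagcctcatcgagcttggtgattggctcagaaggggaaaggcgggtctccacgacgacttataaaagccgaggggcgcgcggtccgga
HSPA8: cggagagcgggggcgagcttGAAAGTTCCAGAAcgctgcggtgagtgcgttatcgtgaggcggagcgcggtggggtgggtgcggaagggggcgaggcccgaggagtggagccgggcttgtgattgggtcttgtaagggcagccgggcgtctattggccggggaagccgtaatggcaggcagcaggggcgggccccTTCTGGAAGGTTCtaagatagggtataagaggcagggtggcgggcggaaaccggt
HSP90AA1: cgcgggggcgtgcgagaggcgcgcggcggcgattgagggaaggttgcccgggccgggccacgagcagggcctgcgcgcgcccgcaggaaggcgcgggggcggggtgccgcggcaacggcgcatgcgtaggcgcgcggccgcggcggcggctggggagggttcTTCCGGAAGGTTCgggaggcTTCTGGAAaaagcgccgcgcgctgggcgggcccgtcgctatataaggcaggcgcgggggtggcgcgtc
HSPA5: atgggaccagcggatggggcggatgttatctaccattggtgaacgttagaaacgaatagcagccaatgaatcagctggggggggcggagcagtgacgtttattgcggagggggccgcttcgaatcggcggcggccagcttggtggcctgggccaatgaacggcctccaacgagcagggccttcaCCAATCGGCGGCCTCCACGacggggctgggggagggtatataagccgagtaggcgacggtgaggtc

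Positions are counted backwards from the start site, with -1 the base before it. HSPA1A and HSPA1B encode the stress-inducible HSP70 and arose by duplication, and their windows were 93.6% identical (235 identical positions, 14 mismatches and 2 gapped positions). Both held 1 heat-shock pair, at -106 to -99 in HSPA1A and at -105 to -98 in HSPA1B, and TATAAA, at -30 to -25 in HSPA1A and at -29 to -24 in HSPA1B. TATAAA, searched on both strands, was in 10.7% of all 35116 windows. The motif shares here are over these windows, a larger set than the 22199 windows of protein-coding genes used above. The 3-unit element, GAANNTTC followed by NNGAA so that both pairs overlap, was searched on both strands and was in 4 of the 15 windows, 1 each of HSPA8, HSPD1, HSP90AA1 and HSP90AB1, and in 0.441% of all windows. HSPA8 held 2 of them, at -230 to -218 and at -55 to -43. HSP90AA1 held 1 in its inner window, at -88 to -76. HSPD1 held 2 that overlap, at -245 to -233 and at -240 to -228, and HSP90AB1 held 2, at -165 to -153 and at -112 to -100. The widest Pol II peaks of HSPD1 and HSP90AB1 differed by less than 2-fold between conditions. The pair GAANNTTC was in 7 of the 15 windows, from 7 genes, and in 5.78% of all windows, and TTCNNGAA in 4 of the 15, from 4 genes, and in 6.62% of all windows. DNAJB1 held GAANNTTC at 2 places in the window of an inner start, at -77 to -70 and at -47 to -40. HSPA5 held the endoplasmic reticulum stress element at -66 to -48, a sequence in 0.0740% of all windows, and none of the heat-shock pairs. The windows of HSPH1 held none of these motifs. These matches describe letters in a window and not a bound site.

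All 10 genes had an H3K4me3 gene-end peak in both conditions, where 66.6% of protein-coding genes had one. For Pol II the count was also 10 of 10 in both conditions, against 57.6% of protein-coding genes. None had a gene-end peak in knockdown alone, against 0.779% of all genes for H3K4me3 and 3.97% for Pol II. None had one in control alone, against 0.554% for H3K4me3 and 1.91% for Pol II. With 10 genes, counts of 0 lie near these low backgrounds. The map of listed peaks gives each gene's peaks in the 6 lists.

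**Figure D1:**
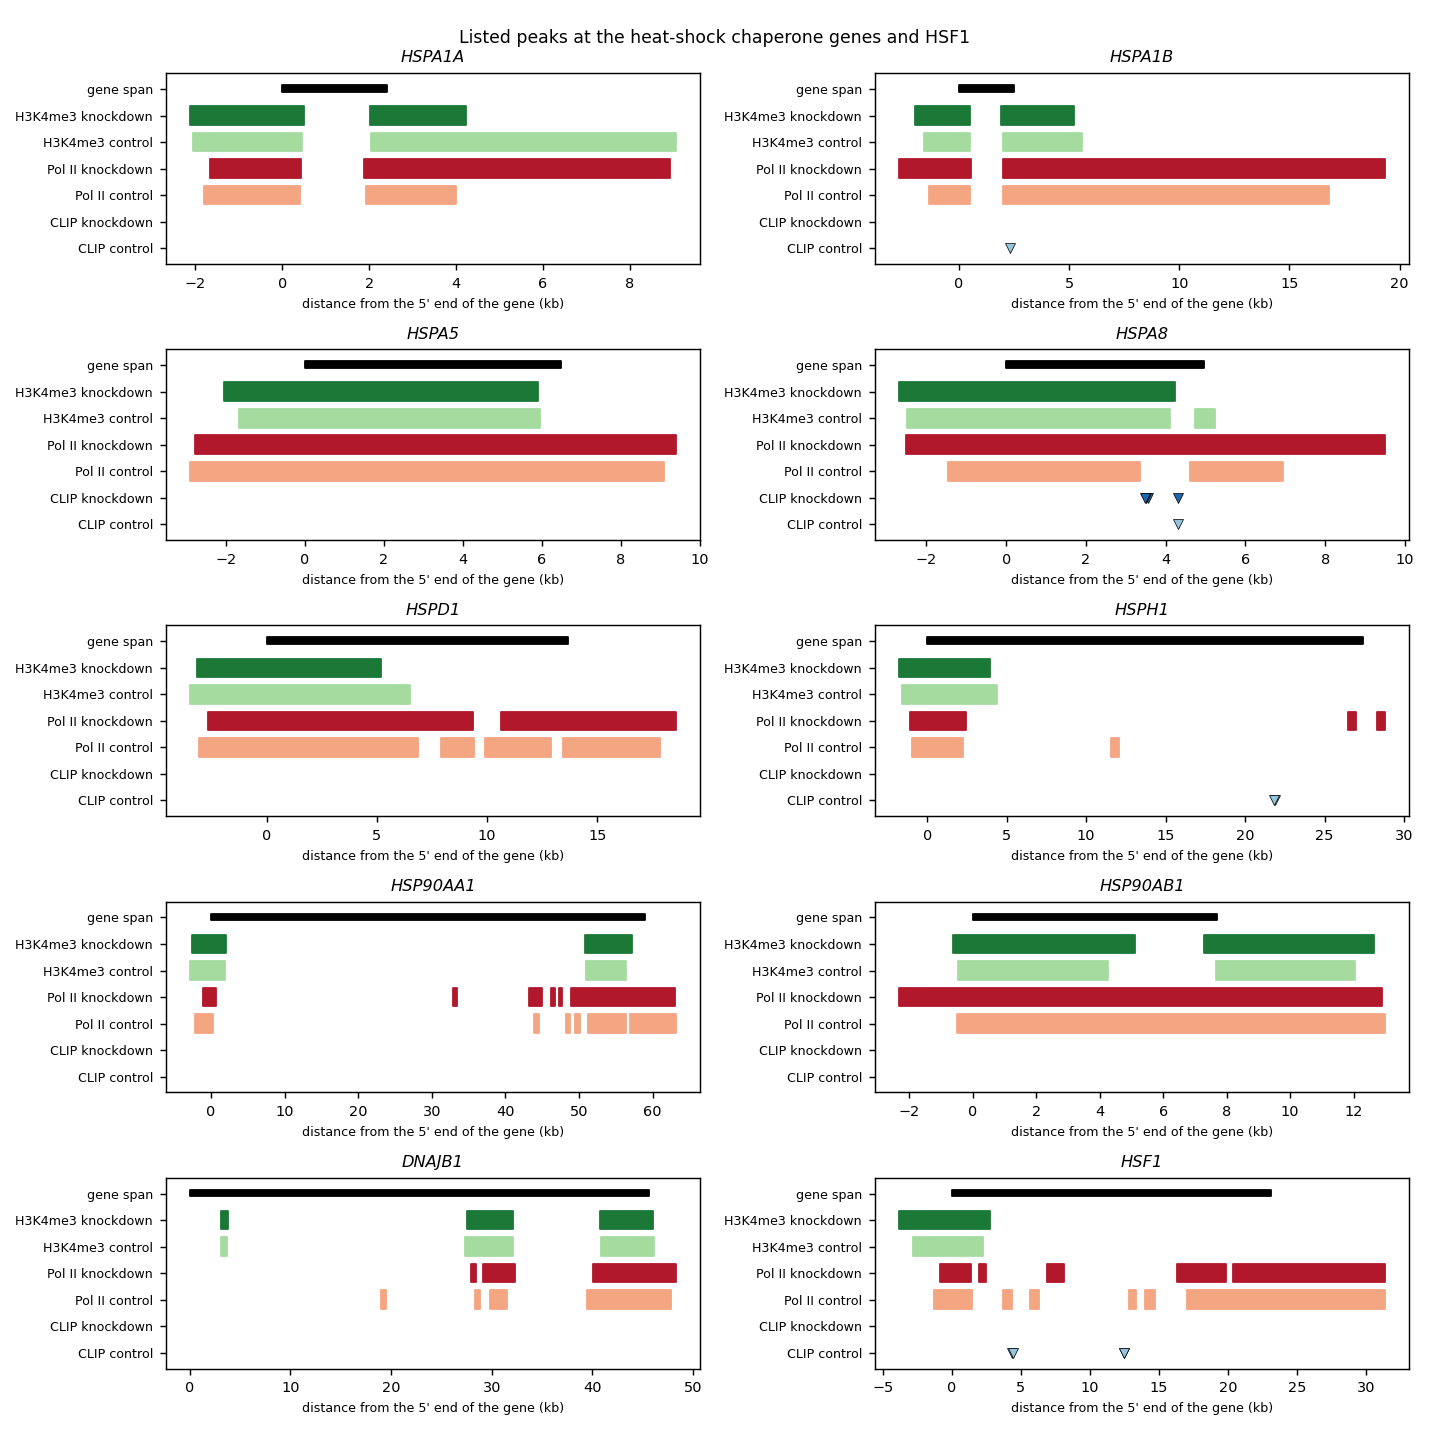
Listed peaks inside the 10 genes or within 1 kb of an end, drawn along the distance in kb from the 5' end of each gene, with the black bar the gene span, bars the ChIP peaks and triangles the centres of CLIP peaks, knockdown above control. HSPA1A and HSPA1B have a gap inside the gene in all 4 ChIP lists, HSPA5 and HSP90AB1 lie wholly under Pol II peaks in both conditions, and triangles appear at HSPA1B, HSPA8, HSPH1 and HSF1.

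HSPA1A and HSPA1B, the inducible HSP70 genes on chromosome 6, showed the same arrangement in all 4 ChIP lists, with 1 peak at the start, 1 at the end and none in between. At the start of HSPA1A the H3K4me3 peak was 2627 bp wide in knockdown (31813416 to 31816042, GRCh38.p5 here and below) and 2513 bp in control (31813492 to 31816004). The Pol II peak there was 2100 bp in knockdown and 2227 bp in control. These peaks also reached the neighbouring gene HSPA1L. At the start of HSPA1B the H3K4me3 peak was 2499 bp in knockdown and 2087 bp in control, and the Pol II peak 3263 bp in knockdown (31825017 to 31828279) and 1858 bp in control (31826393 to 31828250). The uncovered stretch inside HSPA1A was 1514 bp for H3K4me3 and 1444 bp for Pol II in knockdown, and 1568 bp and 1513 bp in control. Inside HSPA1B it was 1398 bp and 1474 bp in knockdown, and 1508 bp and 1496 bp in control. HSPA1A and HSPA1B are near-identical copies, so reads from their coding sequence cannot be assigned with certainty to either gene, and how the authors treated such reads is not given in the sources used here.

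Past the 3' end of HSPA1A the 2 marks differed in opposite directions. The H3K4me3 peak there was 2206 bp in knockdown (31817557 to 31819762) and 7032 bp in control (31817573 to 31824604). The Pol II peak was 7035 bp in knockdown (31817423 to 31824457) and 2058 bp in control (31817473 to 31819530). The wider peak of each pair met 2 peaks of the other list, so a stretch listed as 1 peak in one condition was listed in pieces in the other. Between the outermost gene-end peaks of both lists, 8097 bp in knockdown and 9545 bp in control were under H3K4me3 peaks, a log2 ratio of -0.24. Under Pol II peaks were 9135 bp in knockdown and 7747 bp in control, a log2 ratio of 0.24. Past the 3' end of HSPA1B the Pol II peak was 17326 bp wide in knockdown (31829754 to 31847079) and 14768 bp in control (31829747 to 31844514), running over SNHG32, a small nucleolar RNA host gene. Of the peaks of the same list, 99.7% in knockdown and 99.5% in control were no wider.

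HSPA8 on chromosome 11 encodes HSC70, the constitutive HSP70 of the cytosol. Its H3K4me3 peak was 6934 bp wide in knockdown (123058219 to 123065152) and 6591 bp in control (123058350 to 123064940), where a second, narrow peak lay at the 3' end. Pol II was listed as 1 peak of 12031 bp in knockdown (123052957 to 123064987). In control it was listed as a 4818 bp peak at the start (123059110 to 123063927) and a 2330 bp peak at the 3' end (123055512 to 123057841), with 1268 bp uncovered between them. All of the gene span (100%) was under Pol II in knockdown and 74.5% in control. Over the whole 12031 bp stretch, 12031 bp in knockdown and 8252 bp in control were under Pol II peaks, a log2 ratio of 0.54, the largest of the 10 genes by that measure.

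HSPA5 on chromosome 9 encodes BiP, the HSP70 of the endoplasmic reticulum and a target of the unfolded protein response. It had 1 peak per list, reaching both gene ends or to within 1 kb of them. H3K4me3 spanned 7971 bp in knockdown and 7605 bp in control, and Pol II 12183 bp in knockdown (125231945 to 125244127) and 12005 bp in control (125232255 to 125244259). The Pol II peak also reached the neighbouring gene RABEPK and the divergent transcript HSPA5-DT.

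HSPD1 on chromosome 2 encodes HSP60, the mitochondrial chaperonin, and shares a divergent promoter with HSPE1, which encodes its partner HSP10. The shared H3K4me3 peak was 8376 bp in knockdown (197495083 to 197503458) and 10019 bp in control (197493757 to 197503775). Pol II formed 2 peaks in knockdown, of 12030 and 7971 bp, and 4 in control, of 9964, 1477, 3016 and 4422 bp. Together they put 90.8% of the gene span under Pol II in knockdown and 84.9% in control. HSPH1 on chromosome 13 encodes HSP110, a nucleotide exchange factor for HSP70. Its H3K4me3 peak was 5732 bp in knockdown and 5985 bp in control, and its Pol II peak at the start was 3560 bp in knockdown and 3152 bp in control. HSPH1 also had 2 Pol II peaks near its 3' end in knockdown and none there in control, while control had 1 inside the gene. These 3 peaks have the narrowest width of the Pol II lists, one shared by 28.6% of the knockdown and 29.1% of the control peaks.

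The 2 cytosolic HSP90 genes differed in the share of their RefSeq span under Pol II. It was 100% at HSP90AB1 in both conditions, and 23.9% in knockdown and 16.0% in control at HSP90AA1. Most of the 59008 bp span of HSP90AA1 lies before its inner start, so these shares do not compare Pol II from that start onwards. HSP90AB1 on chromosome 6, the constitutive HSP90, lay wholly under 1 Pol II peak, of 15238 bp in knockdown (44243864 to 44259101) and 13495 bp in control (44245694 to 44259188). That peak and the H3K4me3 peak at the 3' end, 5351 bp in knockdown and 4398 bp in control, also reached the neighbours SLC35B2 and NFKBIE. The H3K4me3 peak at the start was 5741 bp in knockdown and 4732 bp in control. HSP90AA1 on chromosome 14, the inducible HSP90, has an outer start shared with WDR20 and an inner start 52705 bp into its RefSeq span, at the window shown above. The H3K4me3 peak over the inner start was 6397 bp in knockdown (102082600 to 102088996) and 5437 bp in control (102083345 to 102088781), and that over the outer start 4574 bp in knockdown and 4827 bp in control. Pol II ran from before the inner start to past the 3' end as 1 peak of 14218 bp in knockdown (102076663 to 102090880). In control the same stretch held peaks of 6211, 5254 and 765 bp, separated by 564 and 988 bp. The 765 bp peak lay wholly before the inner start.

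DNAJB1 on chromosome 19 encodes HSP40, which passes clients to HSP70 and stimulates its ATPase. Its widest peaks lay over 2 of its inner starts and its 3' end, and no list held a peak at its outer 5' end. At the inner starts H3K4me3 spanned 5254 bp in knockdown (14514364 to 14519617) and 5207 bp in control (14514303 to 14519509). Pol II spanned 8265 bp in knockdown and 8266 bp in control, the closest pair of widths among the 10 genes. A further H3K4me3 peak inside the span, 4538 bp in knockdown and 4777 bp in control, covered the remaining DNAJB1 start site. It also lay over part of TECR, which overlaps DNAJB1, and within 1 kb of one end of TECR. The Pol II peak over that start was 3124 bp in knockdown and 1715 bp in control.

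HSF1 on chromosome 8 had an H3K4me3 peak of 6620 bp at its start in knockdown (144287778 to 144294397) and of 5076 bp in control (144288801 to 144293876), shared with BOP1. The Pol II peak at the start was 2230 bp in knockdown and 2745 bp in control. The widest peak of Pol II at HSF1 was that over its 3' end, which continued over DGAT1, with 10994 bp in knockdown (144312003 to 144322996) and 14356 bp in control (144308621 to 144322976). In knockdown a separate 3518 bp peak lay 562 bp away on the side of the gene. Inside HSF1, 2 further peaks of up to 1193 bp were listed in knockdown and 4 of up to 709 bp in control, and these did not overlap between conditions.

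Across the 10 genes the widest gene-end peak was compared between conditions as a log2 ratio of knockdown over control width. For H3K4me3 it ran from -1.42 to 0.38 with a median of -0.025, against a median of -0.038 over 13350 genes, and was above 0 at 5 genes and below 0 at 5. At HSP90AA1 the value was -0.078, from the outer-start peak shared with WDR20. The inner-start peak of HSP90AA1 (6397 bp in knockdown and 5437 bp in control) is not within 1 kb of a gene end and did not enter. HSPA1A was the single one of the 10 more than 2-fold narrower in knockdown, a class with 0.659% of all genes, and none of the 10 was more than 2-fold wider, a class with 0.584%. For Pol II it ran from -0.38 to 1.66 with a median of 0.20, against 0.076 over 11551 genes, and was above 0 at 8 of the 10 genes, against 56.8% of all genes. HSPA1A (1.66), HSPA8 (1.32) and HSP90AA1 (1.19) were more than 2-fold wider in knockdown, against 7.26% of all genes, and none was more than 2-fold narrower, against 3.84%. At HSPA1A the widest peaks of the 2 lists lie at different ends of the gene, for H3K4me3 at the start in knockdown and at the 3' end in control, and for Pol II at the 3' end in knockdown and at the start in control. At the 3' end alone, the HSPA1A widths given above also differ by more than 2-fold in the same directions, and at the start they do not. At these 3 genes the wider peak lay where the other list held 2 or more peaks. In base pairs covered between the outermost gene-end peaks, a measure chosen after the widths were seen, no gene passed 2-fold for either mark. By that measure the Pol II ratios were 0.24 at HSPA1A, 0.54 at HSPA8 and 0.29 at HSP90AA1, with a median of 0.19 over the 10 genes and 0.071 over all genes. The 2-fold differences in width come with joined or split peaks, and the peak caller's rule for joining is not given in the sources used here.

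**Figure D2:**
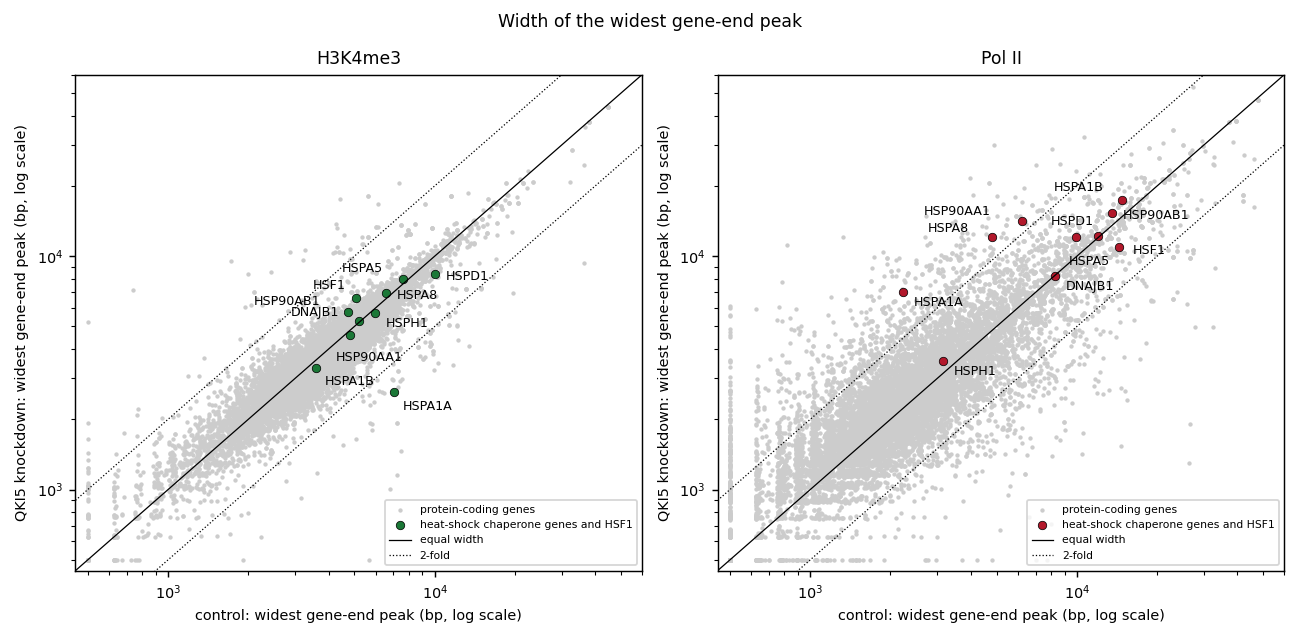
Width in bp of the widest gene-end peak in knockdown (vertical, log scale) against control (horizontal, log scale) for H3K4me3 and Pol II, with grey points all protein-coding genes with a peak in both lists. HSPA1A lies below the lower 2-fold line for H3K4me3 (2627 and 7032 bp), and HSPA1A, HSPA8 and HSP90AA1 lie above the upper line for Pol II.

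A Pol II peak at the 3' end was present at 10 of the 10 genes in knockdown, against 27.0% of 15844 genes with a known strand, and at 9 of 10 in control, against 25.4%. HSPH1 was the gene without one in control. The 10 genes have a median span of 10690.5 bp, against 24115 bp for all protein-coding genes, and the part of gene length in these counts was not tested. At HSPA5 (RABEPK), HSP90AB1 (SLC35B2 and NFKBIE), HSF1 (DGAT1) and HSPA1B (SNHG32) the Pol II peak at the 3' end also reached a neighbouring gene in both conditions, so its source cannot be told apart. At HSPD1 and HSP90AA1 it also reached a small RNA gene or pseudogene (SNORA105B and RN7SL472P). The peak at the 3' end was also the peak at the start at HSPA5 and HSP90AB1 in both conditions, and at HSPA8 in knockdown. It covered inner starts at DNAJB1 in both conditions and the inner start of HSP90AA1 in knockdown. In these cases Pol II at the 3' end cannot be told apart from Pol II at a start. The median share of the gene span under Pol II was 40.9% in knockdown and 42.0% in control over the 10 genes. By gene, only HSF1 had a lower share in knockdown (40.3%) than in control (43.4%). The share was equal at HSPA5 and HSP90AB1 and higher in knockdown at the other genes. The comparison set was 7927 genes with Pol II at a gene end in both conditions and spans in the same range (2400 to 59008 bp, median 18436 bp). Their median share was 12.1% in knockdown and 11.4% in control. Under H3K4me3 the medians were 37.4% in knockdown and 37.4% in control over the 10 genes, and 13.6% in knockdown and 13.9% in control over 8775 genes in that range (median span 18462 bp). These genes are longer at the median than the 10, and a share of the span depends on length.

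**Figure D3:**
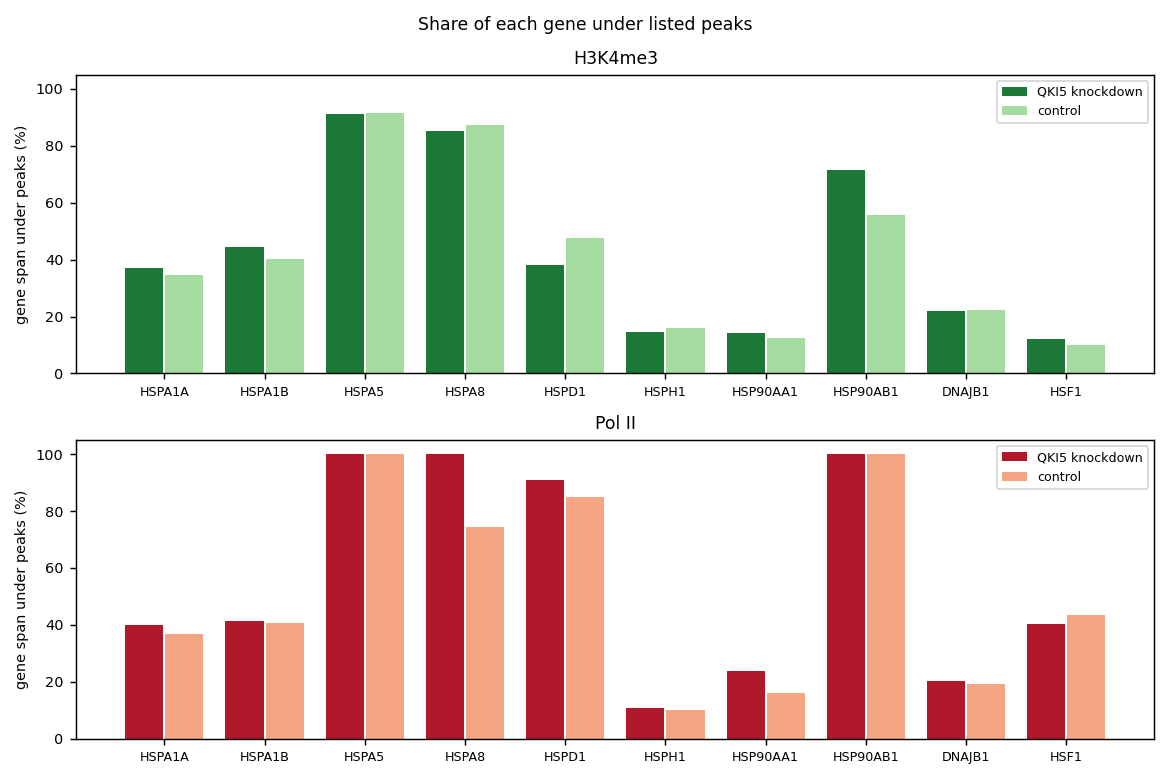
Percent of each gene span under listed peaks in knockdown (dark bars, left) and control (pale bars, right), for H3K4me3 above and Pol II below. HSPA5 and HSP90AB1 reach 100% under Pol II in both conditions, HSPA8 has 100% in knockdown and 74.5% in control, and HSPH1 has 10.8% in knockdown and 9.95% in control.

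QKI5 CLIP peaks carried the symbol of 1 of the 10 genes in knockdown, HSPA8, where 1.75% of protein-coding genes had a peak. In control they carried that of 4 genes, HSPA8, HSPA1B, HSPH1 and HSF1, against 13.2% of protein-coding genes. These shares match RefSeq symbols to the symbols of the CLIP lists, so a gene listed there under another symbol is not counted. HSPA1A, HSPA5, HSPD1, HSP90AA1, HSP90AB1 and DNAJB1 had no listed CLIP peak in either condition. The deposited values of a CLIP peak, which are the authors', are its read number, its log2 enrichment (3.02 or more in knockdown and 3.002 or more in control) and its -log10 p (7.04 or more in knockdown and 7.003 or more in control). The background read number given below was inferred from the first 2 of these and is stated by no source.

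HSPA8 had 4 knockdown peaks and 1 control peak, all on the minus strand of the gene. Of the knockdown peaks, 3 adjoining ones spanned 123058907 to 123058996 with 49, 55 and 24 reads, log2 enrichments of 3.05, 3.10 and 3.23 and -log10 p of 53.9, 62.5 and 13.9. The site is 90 bp long, and 87 bp of it lie in SNORD14D, which it covers from end to end. SNORD14D is one of the box C/D small nucleolar RNA genes that sit in introns of HSPA8. The fourth knockdown peak, at 123058146 to 123058161, had 17 reads at an enrichment of 3.15 (log2) with a -log10 p of 9.74. It contained the single control peak, at 123058155 to 123058160, with 22 reads at an enrichment of 3.03 (log2) and a -log10 p of 10.96. Both overlap the edge of another of these genes, SNORD14E, by 11 bp in knockdown and 2 bp in control. At each of the 5 peaks, 2.09% or less of its own list had a lower enrichment, and the inferred background held 59 to 198 reads at the knockdown peaks and 41 at the control peak. Reads of HSPA8 RNA and of the small nucleolar RNAs inside it cannot be told apart by the symbol in the list. SNORD14D had no listed peak in control, which says that no peak there passed the list's limits and not that no RNA was bound.

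HSPA1B had 1 control peak, at 31830028 to 31830061 on the plus strand, 193 bp before the 3' end of the gene. It had 104 reads, more than 99.3% of the control list, a log2 enrichment of 3.08, with 0.504% of that list lower, and an inferred background of 187 reads. Its -log10 p is the highest value the list gives, shared by 80 control peaks. No HSPA1B peak was listed in knockdown, and none was listed for its copy HSPA1A in either condition. The peak lay under the H3K4me3 and Pol II peaks at the 3' end of HSPA1B in both conditions.

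HSPH1 and HSF1 had control sites of few reads and higher enrichment. The HSPH1 site, 2 adjoining peaks at 31140521 to 31140569 on the minus strand, had 8 reads in each peak at an enrichment of 6.92 (log2) and a -log10 p of 8.74, with an inferred background of 1 read. It lay 5548 bp from the 3' end of the gene and under no ChIP peak. HSF1 had 2 sites on the plus strand, each of 2 adjoining peaks with 9 reads. The first, at 144295942 to 144296033, had log2 enrichments of 5.09 and 4.77, and the second, at 144304038 to 144304138, of 5.51 and 4.77. The inferred background at HSF1 was 3 to 5 reads. At the first site, 1 of the peaks lay under a 638 bp Pol II peak listed in control (144295347 to 144295984), and no knockdown Pol II peak was listed there. The median peak of the lists had 8 reads in knockdown and 9 in control, so all HSPA8 peaks and the HSPA1B peak were above the median of their list and the HSPH1 and HSF1 peaks were not.

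**Figure D4:**
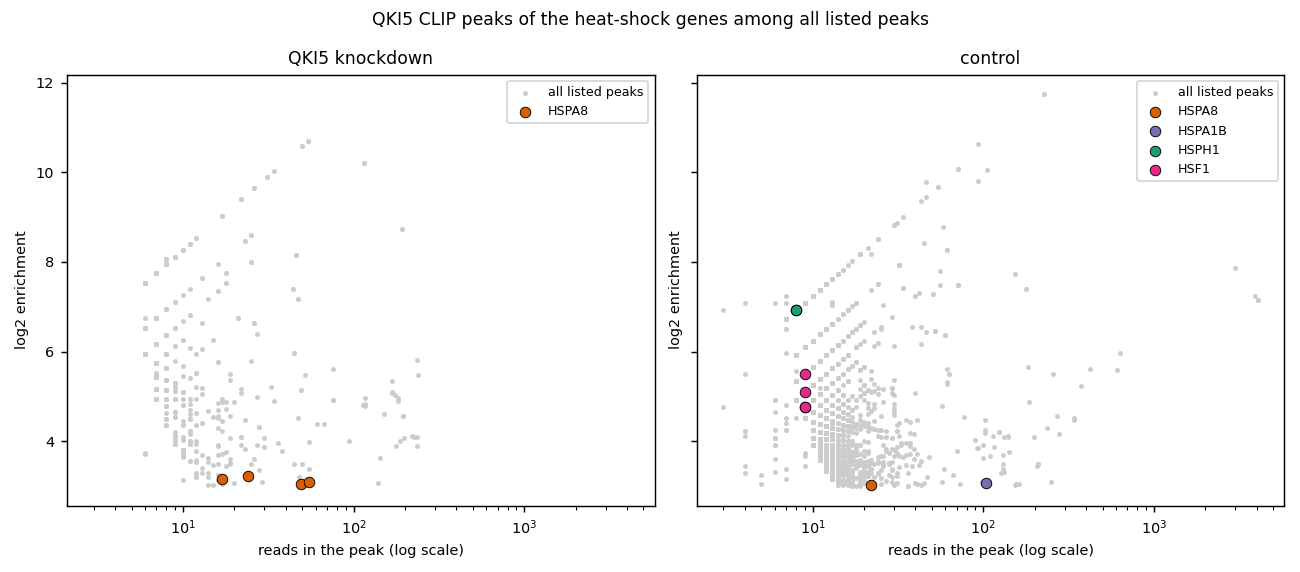
Reads per CLIP peak (horizontal, log scale) against log2 enrichment (vertical) for all listed peaks (grey) in knockdown (left) and control (right), with peaks of the heat-shock genes coloured. The HSPA8 peaks and the HSPA1B peak of 104 reads lie at the lower edge near an enrichment of 3, and the HSPH1 and HSF1 peaks, of 8 and 9 reads, lie higher.

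Around the 10 genes, 65 other chaperone, co-chaperone and unfolded protein response genes were read in the same way. Of these, 60 carried H3K4me3 at a gene end in both conditions, and 60 likewise carried Pol II. Of all protein-coding genes, 66.6% did so for H3K4me3 and 57.6% for Pol II. HSPA2, HSPB8, CRYAB and HSF4, best known from tissues such as testis, muscle and lens, had neither mark within 1 kb of an outer end in either condition. Peaks further inside these genes are not described here. PDIA6, a disulfide isomerase of the endoplasmic reticulum, had Pol II but no H3K4me3 at its outer ends. FKBP5, an HSP90 co-chaperone, had a Pol II peak of 888 bp in control alone. CCT8, a subunit of the chaperonin TRiC, had Pol II peaks of 6519 bp in knockdown and 13521 bp in control, a log2 ratio of -1.05. It was the only one of the 65 past 2-fold in width for either mark. Of all genes with a peak in both lists, 7.26% were past 2-fold wider and 3.84% narrower for Pol II. For H3K4me3 these shares were 0.584% and 0.659%. The median log2 ratio of widths, over those of the 65 genes with a peak in both lists, was -0.078 for H3K4me3 and 0.14 for Pol II. For H3K4me3 17 genes were wider and 43 narrower in knockdown, where 41.9% of all genes were wider and 57.8% narrower. For Pol II 37 were wider and 23 narrower, where 56.8% of all genes were wider and 42.6% narrower. By list, the Pol II peaks were wider at 12 and narrower at 2 cytosolic chaperone and HSF family genes, at 9 and 3 co-chaperone genes, at 3 and 2 mitochondrial chaperone genes, at 2 and 6 TRiC genes, and at 11 and 10 genes of the endoplasmic reticulum. The H3K4me3 peaks were wider at 5 and narrower at 9 genes of the cytosolic list, at 5 and 8 co-chaperone genes, at 1 and 4 mitochondrial genes, at 0 and 8 TRiC genes, and at 6 and 14 endoplasmic reticulum genes. Differences between the lists were not tested.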

How the data were processed

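According to the series design text, both replicates of a group went into its list, which leaves 6 lists. HOMER and GRCh38.p5 appear in the submitters' processing notes, without a role. The aligner, the peak caller, their settings and any use of the inputs remain not given in the sources used here. The deposited ChIP peaks all carry a score of 1, so their position and width were compared. The deposited CLIP lists have no header, and a -log10 p, a log2 enrichment and a read number per peak were read from the values. The linear enrichment equalled reads divided by a whole number, times 30.9 in knockdown and 15.2 in control. The divisor was whole within 0.01 for 95.1% of knockdown and 98.9% of control peaks and is called the inferred background.

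Gene ends were read from RefSeq (GRCh38.p14), and apart from promoter windows none of its coordinates are printed. Patch releases keep the chromosome coordinates. Strand came from RefSeq promoter windows, and for HSF1 from its CLIP peaks. Overlap means at least 1 bp. BED starts were raised by 1. Python 3.11.15 with pandas 2.3.3 and biopython 1.88 was used, and interval and motif functions were tested on simulated data. Members, gene lists and measures were chosen with earlier results of these data known. All 10 members are named. Of the other lists, genes are named with a peak in 1 condition, with a width ratio past 2-fold, with a CLIP peak, or without a mark at a gene end. Alternatives were other distances (500 bp, 5 kb), peaks above the narrowest width, 50% overlap, total widths, 1.5-fold, a -log10 p of 10, 10 reads, merged CLIP peaks and assignment by position. Input samples have no file of their own here.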

Additional observations from a re-analysis of the deposited data

How the results depend on the processing

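The presence of both marks at 10 of 10 genes held at 500 bp and 5 kb from a gene end and without peaks of the narrowest width. With at least 50% of each peak overlapping, 10 genes kept an overlapping H3K4me3 pair and 9 an overlapping Pol II pair. With the total width of gene-end peaks in place of the widest, 0 genes were past 2-fold narrower for H3K4me3 and 1 past 2-fold wider for Pol II, in place of 1 and 3, and the median log2 ratios were -0.0098 and 0.25. At 5 kb the H3K4me3 median was 0.040, and the ratio at HSP90AA1 went from -0.078 to 0.23 because its inner-start peak then counted. With base pairs covered, an alternative added after the data were seen, both counts were 0. A total adds the pieces of a split peak, which is how it differs from the widest peak. With a 1.5-fold limit the counts were also 1 and 3, and assigning CLIP peaks by position and strand gave the same counts. For CLIP in control, a -log10 p of at least 10 left 2 peaks at 2 genes and so did at least 10 reads, HSPA8 and HSPA1B in both cases. With adjoining peaks merged there were 2 sites in knockdown and 5 in control. No paired analysis was possible because each list pools both replicates, and for the same reason no replicate could be left out. Depth is unknown, so a gene without a listed peak is not shown to lack signal.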

Other observations

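CLIP peaks were also listed at 1 of the 65 other chaperone genes in knockdown, TRAP1, where 1.75% of protein-coding genes had one, and at 18 in control, where 13.2% did. TRAP1, the mitochondrial HSP90, had a knockdown site at 3710926 to 3711049 on chromosome 16 with 8 reads and a control site at 3701500 to 3701574 with 12 reads, so the 2 lay at different places. The most reads among these control genes were at CANX, an endoplasmic reticulum chaperone, with 20 reads and a log2 enrichment of 3.20. PTGES3, which encodes the HSP90 co-chaperone p23, had 3 adjoining control peaks at 56687320 to 56687448 on chromosome 12 with 10 to 18 reads, starting 836 bp into the gene. DNAJB6 had 3 adjoining control peaks at 157337012 to 157337163 on chromosome 7 with 11 reads each, starting 8 bp into the gene. Both sites lay under H3K4me3 and Pol II peaks in both conditions. HSPA6, an inducible HSP70 gene, had 2 adjoining control peaks at 161524892 to 161524954 on chromosome 1 with 10 reads each. They lay under H3K4me3 peaks in both conditions and under a Pol II peak in knockdown alone. SIL1, ATF6 and ERN1, genes of the endoplasmic reticulum, had 6, 3 and 5 control peaks.

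The remaining control genes with a CLIP peak were CRYAB, DNAJB4, FKBP5, BAG3, HSPA9, CALR, PDIA3, PDIA4, PDIA6 and CRELD2, with 7 to 14 reads per peak.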
